A study of Homo sapiens with 12 samples.

Results

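Alveolar type II identity genes are the genes by which the surfactant-making cell of the lung is recognised, and 10 of them were followed here in A549, a line grown from a human lung adenocarcinoma. The genes were SFTPB, SFTPC, SFTPD, ABCA3, NAPSA, LAMP3, LPCAT1, NKX2-1, SLC34A2 and FOXA2, and all probe sets that carry exactly one of these symbols in the array's probe table were taken. They came to 20 of the 54613 probe sets on the array besides controls, and to 10 of 19775 genes. Before the array, A549 cells were stained for 90 min with Hoechst, a DNA dye, at 5 µg/ml. Flow cytometry then split them into a weakly stained side population (SP), which exports the dye, and the remaining cells (non-SP). The cultures were either untreated or had been given a monoclonal antibody against EpCAM, an epithelial adhesion molecule, at 100 µg/ml for 48 h. The antibody is described as anti-mouse EpCAM, and whether mouse is its host or its target is not stated. The 4 groups were untreated non-SP, untreated SP, anti-EpCAM non-SP and anti-EpCAM SP, with 3 biological replicates each and 12 arrays in all. Every group is the same single tumour line, so none is normal lung or a sorted alveolar cell. RNA (200 ng a sample) was measured on a 3-prime expression array, and values are log2 expression after robust multi-array averaging (RMA).

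Alveolar type II cells line the air sacs, make and recycle pulmonary surfactant, and give rise to the flat type I cells across which gas is exchanged. Surfactant is a film of phospholipid and proteins that is packed in lamellar bodies, which are secretory organelles derived from lysosomes, and released onto the alveolar surface. The surfactant protein genes are switched on in these cells by NKX2-1 together with forkhead factors such as FOXA2. Lung adenocarcinomas often keep part of this programme, and pathologists stain for NKX2-1 and NAPSA to recognise them.

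An SP and a non-SP array that share treatment and replicate number were alike and are called a pair here. Within a pair, deviations from the group mean correlated over probe sets at r of 0.52 to 0.86, against -0.69 to 0.11 where the numbers differed. Ranked values differed by a mean of 0.00933 to 0.0215 within a pair and by 0.0458 to 0.525 between other arrays. SP and non-SP were therefore compared within the 6 pairs, although no label says that a pair came from 1 sort. Array medians lay between 5.58 and 6.24, and the ratio of 3-prime to 5-prime GAPDH control signal, a sign of RNA integrity, differed within pairs by -0.38 to 0.54 (log2, SP minus non-SP). Precision is limited by the 12 arrays.

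The first question was which of these genes A549 expresses. The deposited values hold no detection call, so each was set against the same array's background, taken as the 95th percentile of 107 olfactory receptor probe sets, which is 5.86 to 6.88 on the log2 scale. LPCAT1, ABCA3 and FOXA2 and some probe sets of SFTPB and SFTPC were above that level on all 12 arrays. SFTPD, LAMP3 and SLC34A2 were never above it, NKX2-1 on 2 arrays at most, and NAPSA on 9 of 12. In all, 7 of the 20 probe sets were above background on every array, 4 on some and 9 on none, and 5 of the 10 genes had at least 1 probe set above it throughout. Over the whole array, 36.4% of probe sets were above background on every array. The level is a lenient one, since HBB, CD14 and PECAM1, genes of red cells, monocytes and endothelium, also passed it on all 12 arrays, with mean log2 values of 7.47, 6.83 and 6.71. PTPRC, MS4A1 and VWF, which mark leukocytes, B cells and endothelium, passed it on 0 arrays. The T cell gene CD3E passed it on 10 arrays and DCN, a fibroblast proteoglycan, on 1.

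**Figure D1:**
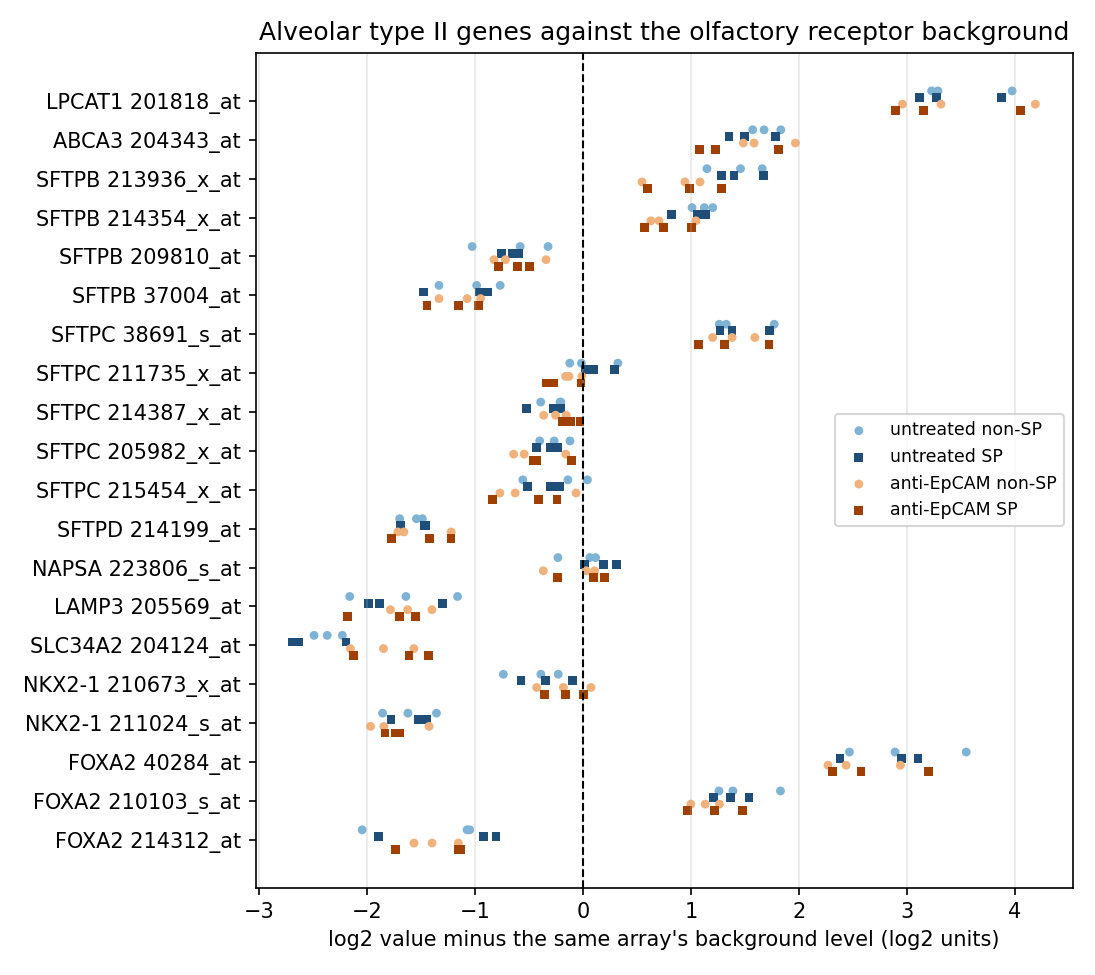
The log2 value of each of the 20 probe sets minus the same array's background level (x axis, log2 units) is plotted for the 12 arrays, coloured by group, with the dashed line at the background. LPCAT1, ABCA3, 2 SFTPB, 1 SFTPC and 2 FOXA2 probe sets lie right of the line on all 12 arrays, and SFTPD, LAMP3 and SLC34A2 lie left of it on all 12.

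Among the transcription factors, FOXA2, a forkhead factor of endoderm and lung epithelium, was above background on all 12 arrays with probe sets 40284_at and 210103_s_at. The values of 40284_at were 9.46, 9.18 and 9.01 in untreated non-SP, 9.03, 9.23 and 8.93 in untreated SP, 8.80, 9.16 and 9.15 in anti-EpCAM non-SP, and 9.10, 9.29 and 9.10 in anti-EpCAM SP. The 4 groups overlapped. The second probe set lay between 7.12 and 8.00, and the third, 214312_at, between 4.24 and 5.72 and never above background. NKX2-1, the homeodomain factor that specifies lung and thyroid, had values of 5.17 to 6.56 with 210673_x_at and of 4.05 to 5.09 with 211024_s_at. The first of these passed the background on 2 arrays and the second on 0.

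Of the surfactant proteins, SFTPB encodes the hydrophobic protein that surfactant needs to spread and lamellar bodies need to form. Its probe set 213936_x_at read 7.57, 7.43 and 8.00 in untreated non-SP, 7.60, 7.56 and 7.95 in untreated SP, 6.94, 7.67 and 7.43 in anti-EpCAM non-SP, and 7.19, 7.71 and 7.38 in anti-EpCAM SP. The 4 groups overlapped, and replicate 1 of anti-EpCAM non-SP was the lowest array. That array also had the lowest median of the 12 (5.58). After quantile normalisation of the 12 arrays together, replicate 3 of anti-EpCAM SP was the lowest instead (7.20, against 7.23). The 4 SFTPB probe sets disagreed on detection: 213936_x_at and 214354_x_at (6.75 to 7.66) were above background on all 12 arrays, and 209810_at (5.27 to 6.11) and 37004_at (4.46 to 5.81) on none. SFTPC, the second hydrophobic surfactant protein and the most type II-restricted of them, likewise had 1 probe set of 5 above background throughout. That probe set, 38691_s_at, read 7.68, 7.55 and 7.87 in untreated non-SP, 7.65, 7.55 and 7.93 in untreated SP, 7.45, 8.10 and 8.08 in anti-EpCAM non-SP, and 7.63, 8.03 and 7.86 in anti-EpCAM SP. The other 4 SFTPC probe sets lay between 5.06 and 6.87, with 211735_x_at above background on 4 arrays, 215454_x_at on 1, and 205982_x_at and 214387_x_at on 0. On this array the suffixes _x_at and _s_at mark probe sets whose probes match more than 1 transcript, so detection of SFTPB and SFTPC rests on such probe sets only. SFTPD, a collectin that binds microbes in the airspace, read 4.13 to 5.66 with its single probe set.

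Of the genes of the lamellar body and of surfactant lipid, ABCA3, the transporter that moves phospholipid into lamellar bodies, was above background on all 12 arrays. LPCAT1, the acyltransferase that makes the dipalmitoyl phosphatidylcholine of surfactant and is also made by many other tissues, was above background on all 12 arrays. It was the only one of the 10 genes to pass the stricter 99th percentile of the olfactory receptor probe sets throughout, as 13.9% of all probe sets did. That stricter level varied from 6.22 to 9.52 between arrays, and FOXA2 40284_at passed it on 10 of 12. LAMP3, a lysosomal membrane protein found on lamellar bodies and in mature dendritic cells, read 3.75 to 5.38. SLC34A2, the phosphate carrier of the type II cell's apical membrane, read 3.30 to 5.17. NAPSA, the aspartic protease that processes SFTPB, read 5.97, 6.05 and 6.66 in untreated non-SP, 6.24, 6.29 and 6.74 in untreated SP, 5.49, 6.83 and 6.91 in anti-EpCAM non-SP, and 5.67, 6.82 and 6.98 in anti-EpCAM SP. Replicate 1 of the anti-EpCAM groups was the lowest in both fractions.

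The sequences before the transcription starts show how unlike these genes are in base composition. RefSeq promoters (GRCh38.p14) were matched by symbol for 7 of the 10 genes, with 11 starts. ABCA3 and LPCAT1 are printed because their SP values were the ones that lay below non-SP in all 6 pairs, and SFTPB for contrast, as a surfactant protein gene whose values lay on both sides. Each run is the 250 bases before a start, 5′ to 3′ on the gene's minus strand, with every CG pair in capitals.
ABCA3, chr16:2340729-2340978: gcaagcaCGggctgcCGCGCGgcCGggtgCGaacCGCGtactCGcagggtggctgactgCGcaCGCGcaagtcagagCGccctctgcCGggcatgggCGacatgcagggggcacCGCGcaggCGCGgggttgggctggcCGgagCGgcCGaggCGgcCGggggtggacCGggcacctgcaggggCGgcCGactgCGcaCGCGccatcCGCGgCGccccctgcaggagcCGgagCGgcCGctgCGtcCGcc
LPCAT1, chr5:1523961-1524210: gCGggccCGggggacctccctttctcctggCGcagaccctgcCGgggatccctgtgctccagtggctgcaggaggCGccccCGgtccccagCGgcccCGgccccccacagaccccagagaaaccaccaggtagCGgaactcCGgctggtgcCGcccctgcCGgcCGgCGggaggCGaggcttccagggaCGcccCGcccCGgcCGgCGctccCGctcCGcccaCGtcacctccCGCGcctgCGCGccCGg
SFTPB, chr2:85668742-85668991: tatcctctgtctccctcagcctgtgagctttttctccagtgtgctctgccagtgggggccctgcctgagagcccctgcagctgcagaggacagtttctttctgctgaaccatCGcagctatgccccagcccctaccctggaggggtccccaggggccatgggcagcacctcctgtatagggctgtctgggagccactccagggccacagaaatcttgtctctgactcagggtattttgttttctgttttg
The ABCA3 run holds 38 CG pairs and is 79.2% G and C, and the LPCAT1 run holds 28 and is 78.8% G and C. The SFTPB run holds 1 CG pair, and the run before its other start 3, against a median of 11 over 35116 promoter entries. SFTPD also holds 1, while NAPSA (10 and 3), NKX2-1 (18 and 7) and SLC34A2 (33 and 4) differ between their 2 starts.

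Letters that forkhead and NK2 homeodomain factors such as FOXA2 and NKX2-1 are known to bind were searched on both strands of the same windows, since these factors act on surfactant genes. The forkhead words were TGTTTAC, its variant TGTTTGC, its variant TGTTTGT and its variant TGTTTAT. The NK2 words were CAAGTG and the related CTCAAG, which share the letters CAAG and can overlap. At least 1 forkhead word occurs in 13.3% of all promoter entries and at least 1 NK2 word in 18.3%. Shown are 30 bases around a word, 5′ to 3′ on the gene's strand (minus for SFTPB, plus for SLC34A2) with the word in capitals, for SFTPB and for SLC34A2, the gene with the largest difference by antibody.
SFTPB, forkhead word on the opposite strand, chr2:85668265-85668294: ttcagagcaaagACAAACActgaggtcgct
SLC34A2, NK2 word, chr4:25656386-25656415: ctgccccccaccCAAGTGtgacttccacgt
SLC34A2, forkhead word, chr4:25656415-25656444: tggtacagtgctTGTTTGCagttatttaag
The SFTPB and SLC34A2 words lie before only 1 start of each gene, and the SFTPB run printed in full above holds neither kind. Of the NKX2-1 windows, 1 holds both kinds of word and the other a forkhead word only. An NK2 word is in 1 NAPSA window, whereas neither kind is in the ABCA3, LPCAT1 or SFTPD window. A match describes the letters only, and says nothing on binding.

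The second question was how SP differed from non-SP cells. ABCA3 read 7.74, 7.96 and 8.11 in untreated non-SP against 7.72, 7.78 and 7.90 in the paired untreated SP, and 7.83, 8.31 and 8.36 in anti-EpCAM non-SP against 7.71, 7.94 and 7.86 in the paired SP. SP was the lower array in 6 of 6 pairs, although the ranges of the groups overlapped in both treatments. The difference was -0.23 ± 0.07 on the log2 scale (SE, n = 6 pairs), a ratio of 0.851, with a 95% interval from -0.39 to -0.08, and it did not pass (limma on within-pair differences, unadjusted p = 0.0083, Benjamini-Hochberg adjusted p = 0.182). LPCAT1 read 9.88, 9.57 and 9.77 in untreated non-SP against 9.80, 9.55 and 9.67 in SP, and 10.05, 10.04 and 9.84 in anti-EpCAM non-SP against 9.96, 9.88 and 9.68 in SP. It too was lower in SP in 6 of 6 pairs, by a small amount of -0.10 ± 0.05 (95% interval from -0.22 to 0.01, limma adjusted p = 0.388). Of all 32768 probe sets tested, 4.53% were lower and 5.01% higher in SP in every pair. NAPSA was higher in SP in 5 of 6 pairs, by 0.14 ± 0.05 (95% interval from 0.01 to 0.27, limma unadjusted p = 0.0371, adjusted p = 0.317). Of all tested, 19.7% were higher and 14.9% lower in SP in at least 5 of 6 pairs.

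By limma, 0 of the 14 probe sets of these genes that passed the filter on dim values changed between SP and non-SP, where 0.641% of all 32768 tested passed, 51 higher and 159 lower in SP. A probe set passed at a Benjamini-Hochberg adjusted p under 0.05 over all tested. At an unadjusted p under 0.05 there were 2 of 14, ABCA3 and NAPSA, against 14.3% of all tested. The 14 estimates had a median of -0.02, with 9 below 0, against 0.01 over all tested. Their 95% intervals lay within -0.39 and 0.27 on the log2 scale, so a difference beyond these bounds lay outside all 14 intervals. In a bulk sample, fewer cells that express a gene and less RNA per cell cannot be told apart.

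The filter kept 14 probe sets of 7 genes, those with a mean over the 12 arrays above 5.39, and the 6 others, SFTPD, LAMP3, SLC34A2 and 1 probe set each of SFTPB, NKX2-1 and FOXA2, were fitted with all 54613 probe sets instead. FOXA2 differed by -0.01 with 40284_at (95% interval from -0.19 to 0.17) and by -0.02 with 210103_s_at, and the pair differences of 40284_at ran from -0.43 to 0.31. SFTPB differed by 0.06, -0.07 and -0.02 with its 3 kept probe sets. The 5 SFTPC probe sets differed by -0.07 to 0.04, with limma adjusted p between 0.783 and 0.945. NKX2-1 (210673_x_at) differed by 0.05, with 3 pairs on each side of 0. Of the dim genes, LAMP3 was at -0.14 ± 0.09 and lower in SP in 5 of 6 pairs (limma adjusted p = 0.589), SFTPD at 0.04 and SLC34A2 at -0.01. Thus the surfactant protein genes and FOXA2 had SP and non-SP values on both sides of each other, and ABCA3 and LPCAT1 were the probe sets with 1 sign in all pairs, 2 of the 14 kept, against 9.55% of all kept. Of the 6 dim probe sets 0 had it.

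**Figure D2:**
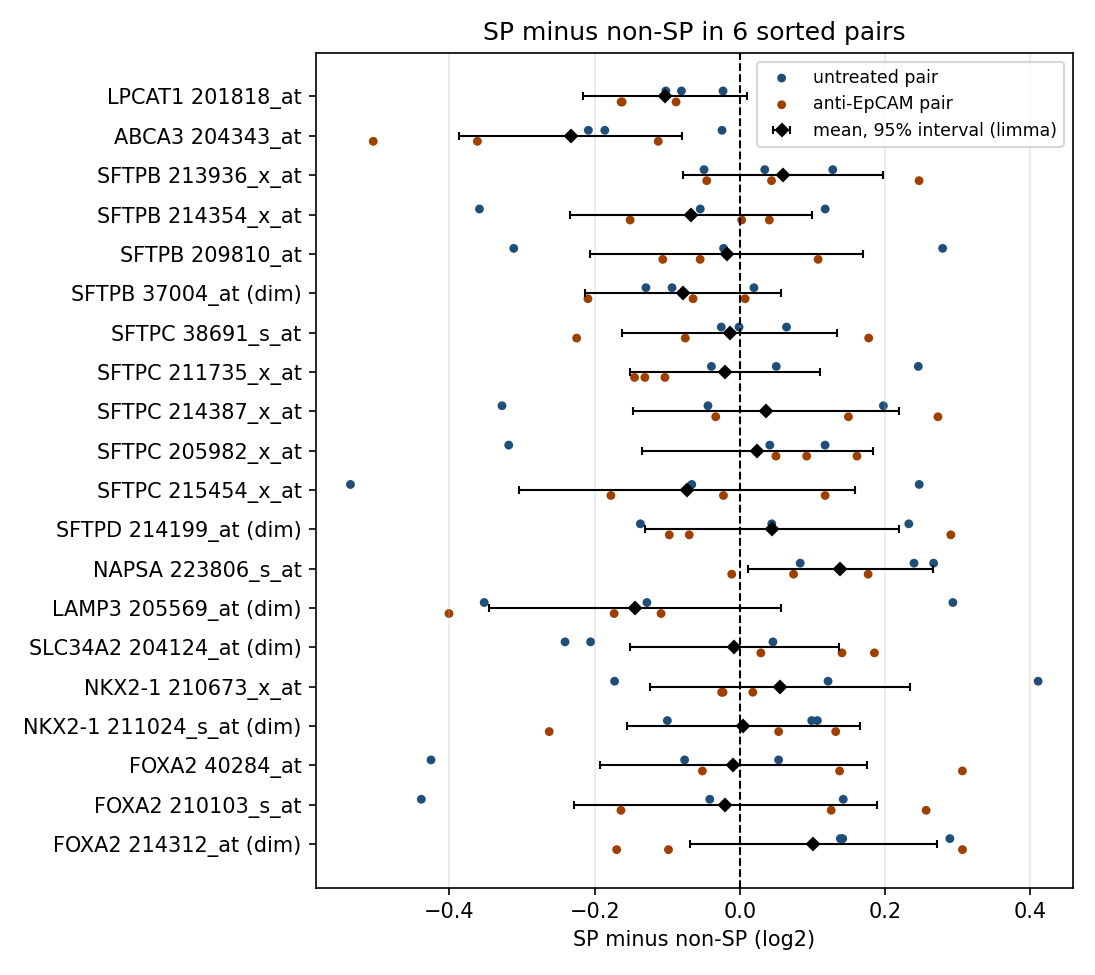
SP minus non-SP (x axis, log2) is plotted for each of the 20 probe sets in the 6 pairs, with points for untreated and anti-EpCAM pairs and a black diamond and bar for the limma mean and its 95% interval; "dim" marks probe sets below the filter. All 6 ABCA3 points and all 6 LPCAT1 points lie left of 0, and the ABCA3 mean is -0.23.

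In untreated cells alone (3 pairs), limma passed 0 of the 14 probe sets and 0 (0.0%) of all 32768, and at an unadjusted p under 0.05 it took 1 of 14, NAPSA at 0.20 ± 0.08, against 8.46% of all. ABCA3 was at -0.14 ± 0.09 in the untreated and at -0.33 ± 0.09 in the anti-EpCAM pairs (limma adjusted p = 0.735 and 0.420). Its SE is the same in both because the spread is shared. The pair differences themselves were -0.02, -0.19 and -0.21 in untreated and -0.11, -0.36 and -0.50 in anti-EpCAM cells. In anti-EpCAM cells 0 of 14 and 0 (0.0%) of all passed, with 1 of 14, ABCA3, and 8.34% of all at an unadjusted p under 0.05. The interaction, which tests whether the fraction difference itself depended on the antibody, was -0.19 ± 0.13 for ABCA3 (95% interval from -0.49 to 0.12, limma unadjusted p = 0.197). For the interaction, limma passed 0 of 14 and 0 (0.0%) of all, and 0 of 14 against 1.59% had an unadjusted p under 0.05. A difference of ABCA3 between treated and untreated pairs was therefore not shown.

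The remaining question was how these genes differed by antibody. Since the arrays look normalised in pairs, all 12 were quantile-normalised together for this comparison, and each pair entered as the mean of its SP and non-SP array, 3 treated against 3 untreated. SLC34A2 gave the largest difference. Its deposited values were 3.54, 3.79 and 4.31 in untreated non-SP, 3.30, 3.59 and 4.35 in untreated SP, 4.29, 4.57 and 5.03 in anti-EpCAM non-SP, and 4.48, 4.59 and 5.17 in anti-EpCAM SP, all below background. After quantile normalisation the pair means were 3.61, 3.75 and 4.19 in untreated and 4.76, 4.31 and 4.78 in treated cells, which do not overlap. The group means were 3.85 ± 0.30 and 4.62 ± 0.26 (SD, n = 3 pairs), a difference of 0.77 ± 0.20 (SE, 95% interval from 0.30 to 1.24), or 1.70-fold. It did not pass in limma over all 54613 probe sets (unadjusted p = 0.0057, adjusted p = 1.00), and 2.67% of all had an unadjusted p under 0.05. The difference was 0.64 ± 0.18 in non-SP and 0.90 ± 0.24 in SP arrays. As this probe set was never above the olfactory receptor level, how much of its value is SLC34A2 RNA was not tested.

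SFTPB went the other way with 1 of its probe sets. For 213936_x_at the quantile-normalised pair means were 7.77, 7.62 and 7.78 in untreated and 7.34, 7.48 and 7.21 in treated cells, without overlap. The deposited pair means, 7.59, 7.50 and 7.97 against 7.06, 7.69 and 7.40, did overlap. After normalisation the difference of -0.38 ± 0.12 (95% interval from -0.67 to -0.09) did not pass (limma unadjusted p = 0.0173, adjusted p = 1.00). The other SFTPB probe sets overlapped between treatments, with differences of -0.14 (214354_x_at), 0.12 (209810_at) and -0.01 (37004_at). The third probe set without overlap was 214387_x_at of SFTPC, at 0.23 ± 0.12 and higher in treated cells, while the other 4 SFTPC probe sets overlapped and lay between -0.13 and 0.08. Non-overlapping pair means were thus seen in 3 of 20 probe sets, 2 higher and 1 lower with antibody, against 3.5% higher and 2.92% lower over all 54613. These shares are for the normalised values. In the deposited values the pair means of SLC34A2 alone among the 20 did not overlap, and how many of all probe sets separate there was not counted. The separation of the SFTPB and SFTPC probe sets was thus seen only after joint normalisation.

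Averaged over fractions, limma passed 0 of the 14 kept probe sets and 0 (0.0%) of all 32768 for the antibody, and 1 of 14, SFTPB 213936_x_at, against 1.71% of all had an unadjusted p under 0.05. In non-SP arrays the counts were 0 of 14 and 0 (0.0%) of all, with 1 of 14 against 2.11% unadjusted, and in SP arrays 0 of 14 and 0 (0.0%) of all, with 1 of 14 against 1.32%. NKX2-1 (210673_x_at) was at 0.32 ± 0.17, ABCA3 at 0.06, LPCAT1 at 0.12, NAPSA at 0.03 and FOXA2 (40284_at) at -0.11. The intervals were wide: over the 14 probe sets they reached from -0.67 to 0.71. The deposited values without joint normalisation put the median of all probe sets 0.09 higher in treated cells, and 0.10 higher in the non-SP arrays, against 0.01 and 0.02 after it.

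**Figure D3:**
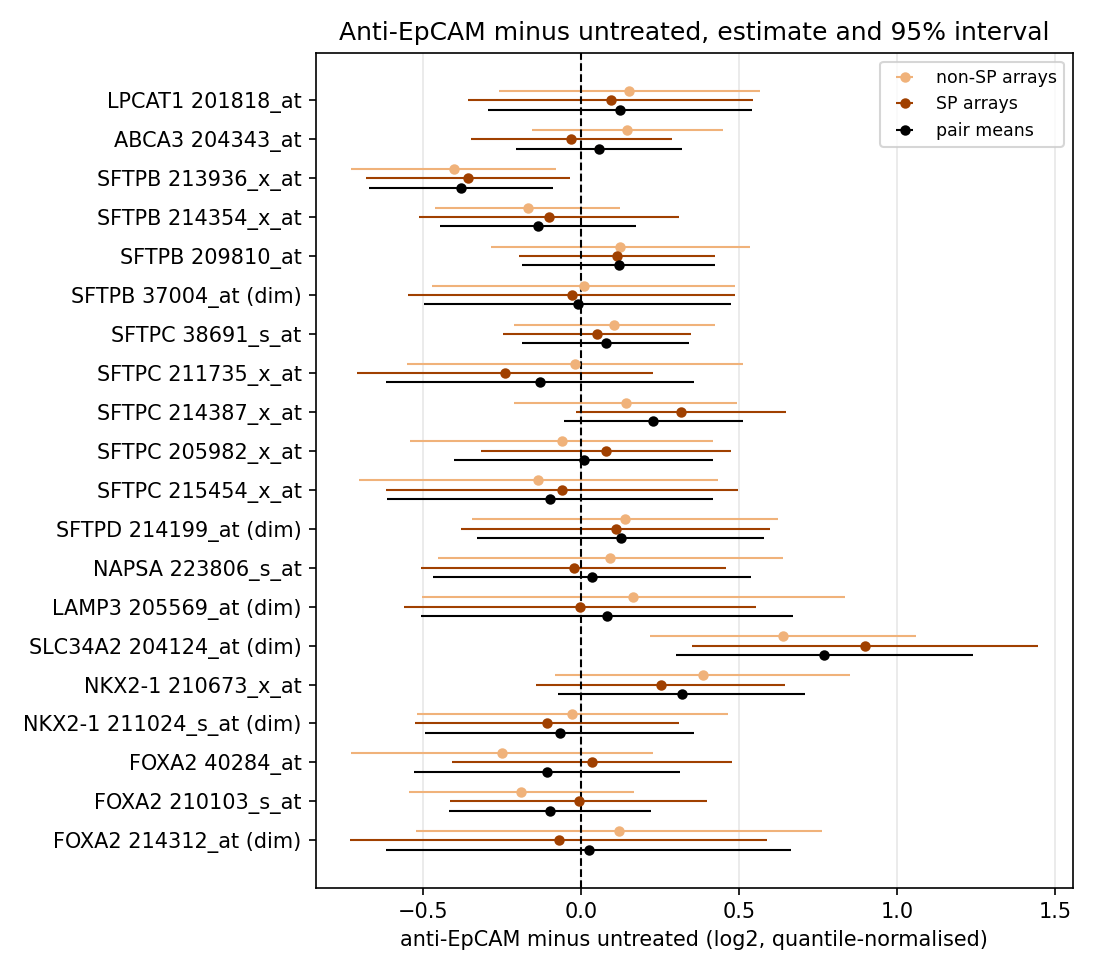
Anti-EpCAM minus untreated (x axis, log2 after quantile normalisation) is plotted for each of the 20 probe sets as the limma estimate with its 95% interval, for non-SP arrays, SP arrays and pair means. SLC34A2 (dim, 0.77 in pair means) lies right of 0 and SFTPB 213936_x_at (-0.38) left of it, with intervals that do not reach 0.

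Other genes of the type II programme were taken from 3 lists, each gene with its brightest kept probe set. Of 11 transcription factors of type II or distal lung cells 10 were tested, all above background on every array. Between SP and non-SP, 0 of the 10 passed in limma, where 0.641% of all probe sets tested passed. An unadjusted p under 0.05 was found for 6 of them, against 14.3% of all tested, and the median difference of the 10 was 0.13, against 0.01 over all. In the limma fit with 1 probe set a gene, 2377 of 14649 had an unadjusted p under 0.05. The list was chosen with earlier results of these data known. GATA6, a zinc-finger factor of lung endoderm, read 8.05, 8.92 and 9.00 in untreated non-SP against 8.84, 9.02 and 9.56 in SP, and 8.31, 9.35 and 8.98 in anti-EpCAM non-SP against 8.75, 9.64 and 9.35 in SP. It was higher in SP in 6 of 6 pairs, at 0.43 ± 0.09 (limma adjusted p = 0.0913). ELF3, an epithelial ETS factor, was at 0.33 ± 0.09 (adjusted p = 0.152) and KLF5, a Krüppel-like factor, at 0.32 ± 0.07 (adjusted p = 0.117). ID2, an inhibitor of helix-loop-helix factors found in distal lung tips, was at -0.54 ± 0.15 (adjusted p = 0.178) and lower in SP in 5 of 6 pairs.

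Second probe sets of these factors did not all give the same value. For ELF3 the probe set 229842_at, named after its values were seen, rose in SP by 0.55 ± 0.07 (limma adjusted p = 0.0269). It read 10.35, 10.30 and 10.39 in untreated non-SP, 10.90, 10.70 and 11.20 in untreated SP, 10.39, 10.35 and 10.11 in anti-EpCAM non-SP, and 10.81, 10.79 and 10.78 in anti-EpCAM SP. All 6 SP arrays were above all 6 non-SP arrays, but how many of all probe sets separate in this way was not counted. The call held without anti-EpCAM pair 1 (adjusted p = 0.0412) and was lost without any other single pair, with adjusted p of 0.0607 to 0.114. The remaining ELF3 probe set, 201510_at, was at 0.37 and higher in 5 of 6 pairs, and the second ID2 probe set was at -0.33. For KLF5, however, 209212_s_at was at -0.29 ± 0.19. The second GATA6 probe set, which passed the filter but was above background on 0 arrays, was at -0.06. Neither gene passed with any probe set.

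**Figure D4:**
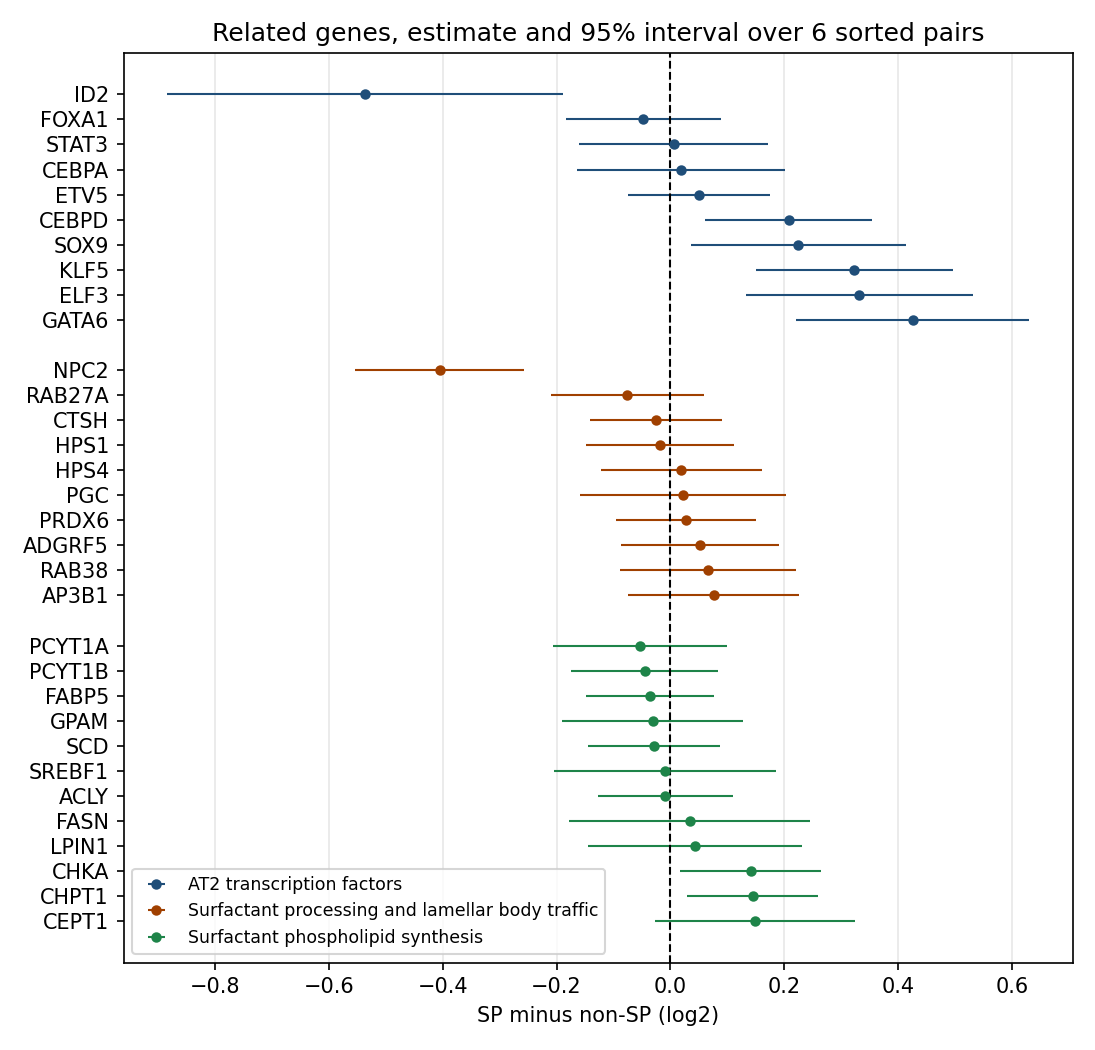
SP minus non-SP (x axis, log2) with its 95% limma interval over 6 pairs is plotted for the tested genes of 3 lists, each by its brightest kept probe set. NPC2 (-0.41) is the point that passed the test, and GATA6 (0.43), ELF3 (0.33) and KLF5 (0.32) lie farthest right.

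Of 14 genes of surfactant processing and lamellar body traffic 10 were tested, and 1 fell in SP, where 0.641% of all probe sets tested passed in either direction. NPC2, a small cholesterol-binding protein of the lysosome that is abundant in type II cells and in most others, read 12.48, 12.37 and 12.06 in untreated non-SP against 12.25, 11.97 and 11.70 in SP, and 12.62, 12.49 and 12.19 in anti-EpCAM non-SP against 12.26, 11.80 and 11.80 in SP. SP minus non-SP was between -0.69 and -0.23 in the 6 pairs, and NPC2 fell by 0.41 on the log2 scale, with an SE of 0.06 and limma adjusted p = 0.0467. The call was kept without anti-EpCAM pair 1 (adjusted p = 0.0496) and was lost without anti-EpCAM pair 2 (0.124) or 3 (0.0941) or untreated pair 1 (0.125), 2 (0.125) or 3 (0.214). With a variance trend (adjusted p = 0.286), with the GAPDH ratio as a covariate (0.0764) and with the 12 arrays taken as independent (1.00) it did not pass either. With their brightest probe sets the other 9 genes lay between -0.08 and 0.08, among them CTSH, a protease of SFTPB and SFTPC processing, and PRDX6, a peroxiredoxin that also degrades surfactant lipid. Among their other probe sets, AP3B1 203141_s_at was at 0.29 ± 0.10 (adjusted p = 0.258) and RAB27A 209515_s_at at -0.16 ± 0.06 (adjusted p = 0.305). The surfactant-associated genes SFTA2 and SFTA3 were below the filter, with means of 3.85 and 3.29. The surfactant protein genes SFTPA1 and SFTPA2 had no probe set that carries their symbol alone, so they were not measured here.

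Of 12 genes of phospholipid and fatty acid synthesis all were tested. None passed in limma (0 genes), 2 of 12 had an unadjusted p under 0.05 against 14.3% of all probe sets, and their median difference was -0.01. With their brightest probe sets, CHPT1, a choline phosphotransferase, was at 0.14 ± 0.05 (limma adjusted p = 0.253) and CHKA, a choline kinase, at 0.14 ± 0.05 (adjusted p = 0.297). Both were higher in SP in 6 of 6 pairs, as were 5.01% of all tested. Of all 25 kept probe sets of the 12 genes, 0 passed and 5 had an unadjusted p under 0.05. Among the others, GPAM 225420_at was at -0.57 ± 0.19 (limma adjusted p = 0.244), CHKA 204233_s_at at 0.22 and FASN 217006_x_at at 0.18. CHPT1 230364_at was at 0.11, and CHPT1 1559739_at, above background on 1 array, at -0.15 ± 0.08. By antibody, 0 of the 10, 10 and 12 tested genes of the 3 lists passed in limma, averaged or within a fraction, as did 0 (0.0%) of all 32768. In the averaged contrast 0 of them had an unadjusted p under 0.05, against 1.71% of all.

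Markers of other lineages were read the same way. Of 10 genes of type I cells, CAV1, CAV2 and EMP2 were above background on all arrays, while AGER, AQP5, PDPN and HOPX, which define the type I cell, were above it on 1 array at most. Of 9 airway genes with a probe set, 2, the mucins MUC5AC and MUC5B, were above it on all 12 arrays. FOXJ1 was above it on 2 arrays, KRT5 and SCGB3A1 on 1 each, and SCGB1A1, the club cell secretoglobin, on 0. SCGB3A2, CYP2F1 and BPIFA1 were also above it on 0. Of the gastric, intestinal and hepatic genes that NKX2-1-low lung adenocarcinomas can express, the trefoil peptide TFF1 and the brush-border protein VIL1 were above background on all 12 arrays. FOXA3 and CTSE were above it on 11, LGALS4 on 6, TFF3 on 1, and TFF2, CDX2, PDX1 and GKN1 on 0. TFF1 was at 0.25 between SP and non-SP (limma adjusted p = 0.412). Tested were 7 genes of the type I list, 6 of the airway list and 8 of the gastric list. Between SP and non-SP 0 of these genes passed in limma, where 0.641% of all probe sets tested passed. For this contrast 1 of them, the forkhead factor FOXA3 (0.17, limma adjusted p = 0.336), had an unadjusted p under 0.05, against 14.3% of all tested. By antibody 0 of them passed, as did 0 (0.0%) of all tested. By antibody averaged over fractions the type I gene CLIC5 alone, at -0.40, had an unadjusted p under 0.05 in limma, against 1.71% of all tested. CLIC5 was above background on 0 arrays. The mean log2 level of the gastric list lay between 5.81 and 6.66 in untreated non-SP, 5.90 and 6.75 in untreated SP, 5.63 and 6.90 in anti-EpCAM non-SP and 5.80 and 6.99 in anti-EpCAM SP, ranges that overlap. The mean of the 10 alveolar type II genes was 6.52 to 7.02, 6.54 to 6.96, 6.54 to 7.22 and 6.61 to 7.11 in the same order, also overlapping. Both sets of ranges are over deposited values and leave the pairing out, so their overlap does not compare SP with non-SP within pairs. Within pairs, the 8 tested genes of the gastric list had a median SP minus non-SP of 0.07, against 0.01 over all probe sets tested.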

How the data were processed

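RNA of 12 sorted A549 samples was measured on Affymetrix arrays. The deposited values are log2 expression per probe set, made by the authors with RMA, per the submitters' processing notes; the RMA version and the arrays processed together are not given in the sources used here. Symbols came from a probe table: 41091 probe sets had 1 symbol, 1801 several and 11721 none, and 62 controls were left out. The genes and lists were chosen with earlier results of these data known.

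Probe sets with a mean over 12 arrays above the 40th percentile were kept, 32768 in all. SP minus non-SP was tested with limma 3.58.1 (R 4.3.3, lmFit and eBayes, two-sided, Benjamini-Hochberg over all kept probe sets) on within-pair differences. The pairing rests on shared treatment and replicate number and on the correlations given above, as the labels do not name shared sorts; shared processing cannot be told apart from a shared sort. Antibody contrasts used quantile-normalised pair means or arrays without pairing, since same-numbered treated and untreated arrays correlated at 0.66, -0.20 and 0.48 (non-SP) or 0.63, -0.36 and 0.57 (SP). The labels call the replicates biological without saying that cultures were separate, so p-values measure the spread between these samples. The 10 genes were named with all probe sets; of the other lists, each gene that passed and up to 4 of smallest p, by the brightest kept probe set. The fits were tested on simulated data. Alternatives covered pairing, normalisation, filter, variance prior, RNA quality and left-out pairs.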

Additional observations from a re-analysis of the deposited data

Results flagged for a closer look

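SFTPC probe set 205982_x_at had 1 pair far from the others. SP minus non-SP was -0.32 on the log2 scale in untreated pair 2 and 0.04 to 0.16 in the other 5 pairs, a gap of 0.750 of the whole range. Chance flags about 1 in 20 such groups, and 20 probe sets were looked at. This probe set was above background on 0 arrays.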

How the results depend on the processing

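None of the 14 kept probe sets of 7 genes passed under an alternative: over 1261 values in 7 contrasts the smallest limma adjusted p was 0.0836, for ABCA3 without anti-EpCAM pair 1 (-0.29), and 91 had another sign than the value given, each without passing. The 6 dim probe sets were fitted with no filter only, except SLC34A2 by antibody. ABCA3 stayed between -0.29 and -0.19, LPCAT1 between -0.12 and -0.09 and NAPSA between 0.09 and 0.17 in SP minus non-SP, and SLC34A2 between 0.65 and 0.94 by antibody over alternatives chosen after seeing the data. With the replicate number as a block (replicate block), 0 probe sets passed by antibody averaged over fractions (1863 at an unadjusted p under 0.05), and SLC34A2 had an SE of 0.16 and adjusted p = 0.760. The count over the whole array moved more. The 210 probe sets that passed between SP and non-SP became 0 with no replicate block (12 arrays as independent, 563 at an unadjusted p under 0.05), 0 with a variance trend, 0 without anti-EpCAM pairs 1 and 3, 125 with the GAPDH ratio in the fit, 362 with 1 probe set a gene, and 0 to 322 with 1 pair left out. Leaving out untreated pair 1, 2 or 3 gave 10, 22 and 0, and leaving out anti-EpCAM pair 1, 2 or 3 gave 322, 0 and 11. With 1 probe set a gene, 14 passed in untreated and 36 in anti-EpCAM pairs, and with no filter 1 in anti-EpCAM pairs. NPC2 and ELF3 229842_at kept their directions but did not pass with no replicate block (adjusted p = 1.00 and 0.851) or with a variance trend (0.286 and 0.287) or without anti-EpCAM pairs 1 and 3 (0.131 and 0.140), and NPC2 not with the GAPDH ratio (0.0764). With the 99th percentile of the olfactory receptor probe sets as background, 1 of the 20 probe sets, that of LPCAT1, was above it throughout, against 13.9% of all. With the 40th percentile of all probe sets as background, 13 of the 20, from 7 genes, were above it throughout, against 51.2% of all. The causes were not tested. Low signal limits SFTPD, LAMP3, SLC34A2 and NKX2-1, whose values lie mostly at background.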
